A study of Mus musculus with 12 samples.

Results

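The 10 genes described here are a set of hypoxia and HIF target genes (*Vegfa*, *Epo*, *Slc2a1*, *Pfkfb3*, *Egln3*, *Adm*, *Ankrd37*, *Bnip3* and *Pdk1*) together with *Hif1a*, which encodes the oxygen-regulated HIF-1α subunit itself. They were chosen by name, with earlier results of these data known. All 10 were found by Ensembl identifier among the 55401 genes measured by RNA-Seq in whole kidney. The mice were male C57BL6 animals aged 8 weeks. Both groups received 15% 2-hydroxypropyl-beta-cyclodextrin as the carrier. The 6 vehicle-treated mice were given the carrier alone. The 6 SK-124–treated mice were given SK-124, a selective SIK2/SIK3 inhibitor, in this carrier by a single intraperitoneal injection at 40 mg/kg. The labels name no genetic change in either group. The sources used here give no separate harvest time for these libraries and do not say that kidneys were pooled, so each library is taken as 1 mouse.

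HIF transcription factors are dimers of an oxygen-regulated α subunit and a stable partner, ARNT. When oxygen is ample, prolyl hydroxylases of the EGLN family mark the α subunit for ubiquitination by the VHL complex and its destruction, and when oxygen is low the α subunit accumulates and the dimer binds short DNA motifs with the core letters ACGTG or GCGTG near its target genes. HIF-1α is therefore controlled mainly at the protein level, so its mRNA is a poor measure of its activity. In the kidney, erythropoietin is made by interstitial cells of fibroblast type under HIF-2α, while VEGF-A comes largely from podocytes and tubules.

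Sequences at the start of 3 genes are shown because these members had the largest fall (*Egln3*), no overlap between the groups in CPM (*Pdk1*) and the opposite direction (*Bnip3*). They are RefSeq windows (GRCm38.p6) from 250 bases before to 50 bases after the gene start, given on the gene's strand, with ACGTG or GCGTG on either strand in capitals, overlapping matches merged.
Egln3 (chr12:54203825-54204124, minus strand): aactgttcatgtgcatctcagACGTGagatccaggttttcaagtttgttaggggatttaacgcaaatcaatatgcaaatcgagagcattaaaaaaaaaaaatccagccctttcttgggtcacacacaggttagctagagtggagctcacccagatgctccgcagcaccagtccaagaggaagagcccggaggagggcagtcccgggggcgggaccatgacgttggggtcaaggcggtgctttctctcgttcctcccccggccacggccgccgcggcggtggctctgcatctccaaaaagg
Pdk1 (chr2:71872974-71873273, plus strand): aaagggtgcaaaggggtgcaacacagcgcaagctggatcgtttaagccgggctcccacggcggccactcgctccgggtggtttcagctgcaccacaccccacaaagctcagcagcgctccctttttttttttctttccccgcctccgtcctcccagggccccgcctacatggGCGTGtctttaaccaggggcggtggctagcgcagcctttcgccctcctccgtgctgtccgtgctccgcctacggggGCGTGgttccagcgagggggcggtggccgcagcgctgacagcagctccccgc
Bnip3 (chr7:138909457-138909756, minus strand): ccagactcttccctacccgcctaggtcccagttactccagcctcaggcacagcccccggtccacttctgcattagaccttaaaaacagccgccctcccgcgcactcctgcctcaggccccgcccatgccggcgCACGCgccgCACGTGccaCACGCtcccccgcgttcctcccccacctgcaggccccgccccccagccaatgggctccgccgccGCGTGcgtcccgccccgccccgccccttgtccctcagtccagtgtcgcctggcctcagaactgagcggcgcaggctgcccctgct
The *Egln3* window held 1 match, the *Pdk1* window shown 2 and the *Bnip3* window 5. A second *Pdk1* window, at chr2:71874654-71874953 and not shown, held 0. All 10 members had windows in the table, 13 in all since some genes have several starts, and 11 of the 13 held a match. Of all 32851 windows in the table, 43.8% held one. The cAMP-response letters TGACG were found on either strand in 4 of the 13 windows, belonging to *Egln3*, *Pfkfb3* and *Vegfa*, and in 20.8% of all windows. The full palindrome TGACGTCA was in none of the 13 and in 1.79% of all windows. A match in these letters is a description of the sequence only.

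Expected counts from RSEM summed to between 19244227 and 19771802 per mouse. They were scaled to library size with TMM factors (CPM, counts scaled to library size), and the quasi-likelihood test of edgeR was run on all 14159 genes that passed the expression filter, with p-values adjusted over them by the Benjamini-Hochberg method (FDR). Of these genes 24.4% were called at an FDR under 0.05, with 10.8% higher and 13.5% lower in SK-124–treated mice, and in 13.0% the groups did not overlap in CPM. The 10 most abundant genes took 39.9% to 43.2% of counts in vehicle-treated mice, 44.4% to 46.8% in SK-124–treated mice 1 to 3 and 38.6% to 40.2% in SK-124–treated mice 4 to 6. Scaling by library totals alone moved the median log2 fold change of all tested genes from -0.01 to -0.12 and the share of higher genes among those called from 44.5% to 20.3%, so fold changes below are relative to the TMM scale. Proximal tubule markers, led by *Slc34a1*, were abundant in all 12 libraries, and none of the 6 was called. In other cell type lists 1 of 3 thick ascending limb markers rose (*Cldn16*), 1 of 3 collecting duct markers rose (*Aqp2*) and 1 of 4 macrophage markers fell (*Cd68*). The 4 macrophage markers went in both directions, with log2 fold changes from -0.62 to 0.18. Their summed level ranged from 46.7 to 58.4 CPM in vehicle-treated mice and from 48.4 to 60.9 CPM in SK-124–treated mice. No marker of any list was at 0 in any mouse.

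As a group the members moved little and in both directions. Of the 10, 8 passed the expression filter, and of these 4 fell (*Egln3*, *Slc2a1*, *Pdk1* and *Vegfa*), 1 rose (*Bnip3*) and 3 did not pass the test (*Pfkfb3*, *Adm* and *Hif1a*). The 5 called are 62.5% of those tested, beside 24.4% of all genes (10.8% higher and 13.5% lower). The median log2 fold change of the 8 was -0.14, beside -0.01 for all genes tested. *Epo* and *Ankrd37* had too few counts to be tested. The groups did not overlap in CPM for 1 of the 8, *Pdk1*, beside 13.0% of all genes. In TPM the groups of *Pdk1* overlapped, and those of *Egln3* did not. DESeq2 called 5 members beside 25.1% of all genes, library totals 4 beside 27.1%, and limma on log2(TPM + 1) 2 beside 18.6%. With SK-124–treated mice 1 to 3 alone 1 member was called, beside 15.8% of all genes, and with mice 4 to 6 alone 2 members, beside 16.7%. On the TPM scale 2 members were called, *Egln3* and *Slc2a1*. Apart from *Egln3*, which fell by 42.1%, the called members changed by less than 15%: *Vegfa* by -9.81%, *Slc2a1* by -14.9%, *Pdk1* by -13.6% and *Bnip3* by 12.4%.

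**Figure D1:**
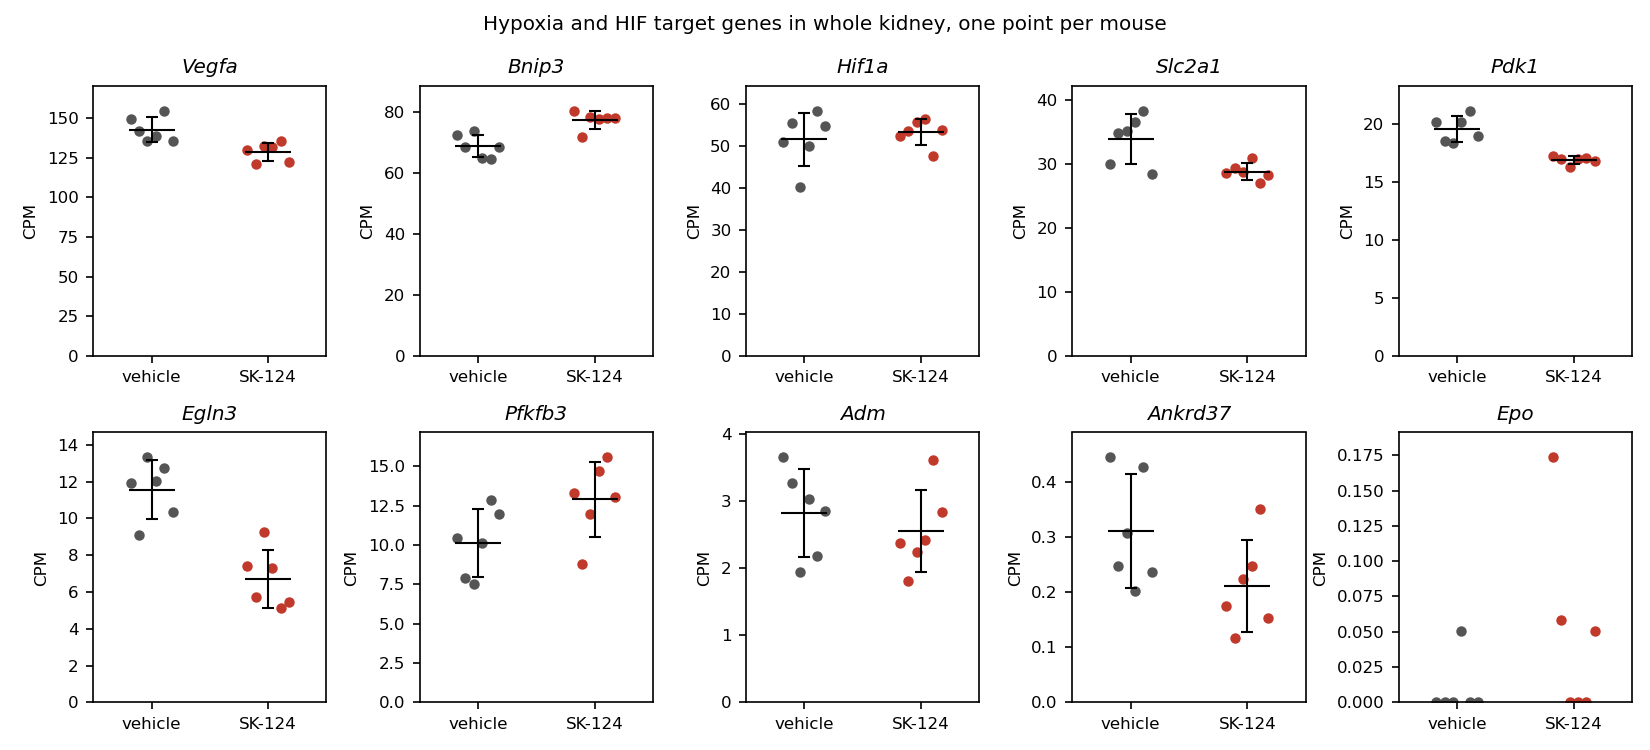
TMM-normalized CPM of each member in every mouse (gray, vehicle; red, SK-124; each point 1 mouse; bars, mean ± SD, not drawn for *Epo*). *Egln3* and *Pdk1* sit lower in the SK-124–treated mice and *Bnip3* higher, while *Hif1a* and *Adm* overlap throughout.

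*Egln3* (ENSMUSG00000035105.5) encodes PHD3, the HIF prolyl hydroxylase that is itself induced by HIF and so forms a feedback arm of the pathway. It lies on chromosome 12 from 54178981 to 54203860 on the minus strand in GENCODE M21 (GRCm38), with no other annotated gene overlapping it. Vehicle-treated mice ranged from 9.07 to 13.3 CPM with a median of 11.97, and SK-124–treated mice from 5.11 to 9.24 CPM with a median of 6.502. Of the 6 SK-124–treated mice, 5 lay below every vehicle-treated mouse, and SK-124–treated mouse 3, at 9.24 CPM, was just above the lowest of them. On the log2 scale *Egln3* changed by -0.79 (SE 0.13, FDR = 0.000264, edgeR), and the exact two-sided permutation test over mice gave p = 0.00433. It was called against SK-124–treated mice 1 to 3 alone (-0.63, FDR = 0.011) and mice 4 to 6 alone (-0.95, FDR = 0.000393), and in all 22 alternatives run. The other prolyl hydroxylases did not fall: *Egln1*, which encodes the main oxygen sensor PHD2, had a log2 fold change of -0.04 (95% interval -0.15 to 0.07, FDR = 0.596), and *Egln2*, encoding PHD1, rose by 0.18 (FDR = 0.0243) with no overlap between the groups. The rise of *Egln2* was not called with library totals (0.06, FDR = 0.55) or on the TPM scale. Its call was kept in 13 of 22 alternatives, 9 of them among the 12 fits without 1 mouse.

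**Figure D2:**
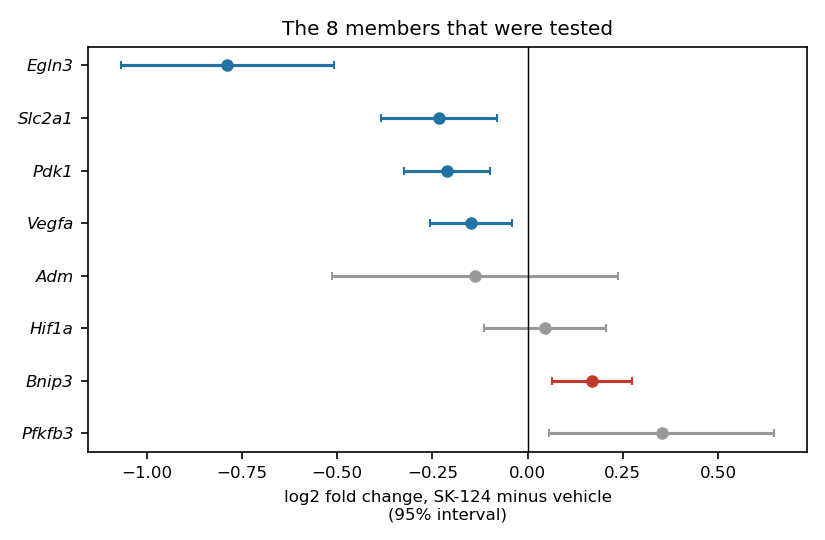
Log2 fold change of SK-124 minus vehicle with its 95% interval for the 8 members that were tested (blue, lower and red, higher at an FDR under 0.05; gray, not called). *Egln3* at -0.79 lies apart, and the other called members lie between -0.23 and 0.17.

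*Hif1a* (ENSMUSG00000021109.13; chromosome 12, 73901375 to 73947530, plus strand) showed no detectable difference. It ranged from 40.3 to 58.5 CPM with a median of 52.9 in vehicle-treated mice and from 47.7 to 56.6 CPM with a median of 53.8 in SK-124–treated mice. A log2 fold change of 0.05 had a 95% interval of -0.11 to 0.21 (FDR = 0.713, edgeR), and the sign turned to -0.07 with library totals.

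Among the 19 subunits and regulators of HIF, all of which were tested, 3 rose and 1 fell, which is 21.1% called and no more than the 24.4% of all genes. The rises were *Hif3a*, *Cited2* and *Egln2*, and the fall was *Egln3*. *Hif3a* encodes HIF-3α, of which some forms restrain the other HIF subunits. It ranged from 0.511 to 1.36 CPM (median 0.631) in vehicle-treated mice and from 3.86 to 6.39 CPM (median 5.78) in SK-124–treated mice, a 7.45-fold difference with no overlap (log2 fold change 2.90, SE 0.20, FDR = 1.25e-08). *Cited2*, whose product competes with HIF-1α for the coactivators p300 and CBP, ranged from 77.1 to 115 CPM in vehicle-treated mice and from 110.1 to 160.0 CPM in SK-124–treated mice (log2 fold change 0.55, SE 0.11, FDR = 0.000887), but was not called on the TPM scale (0.39, FDR = 0.059). *Epas1*, encoding HIF-2α, had a log2 fold change of -0.01 with a 95% interval of -0.22 to 0.20.

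**Figure D3:**
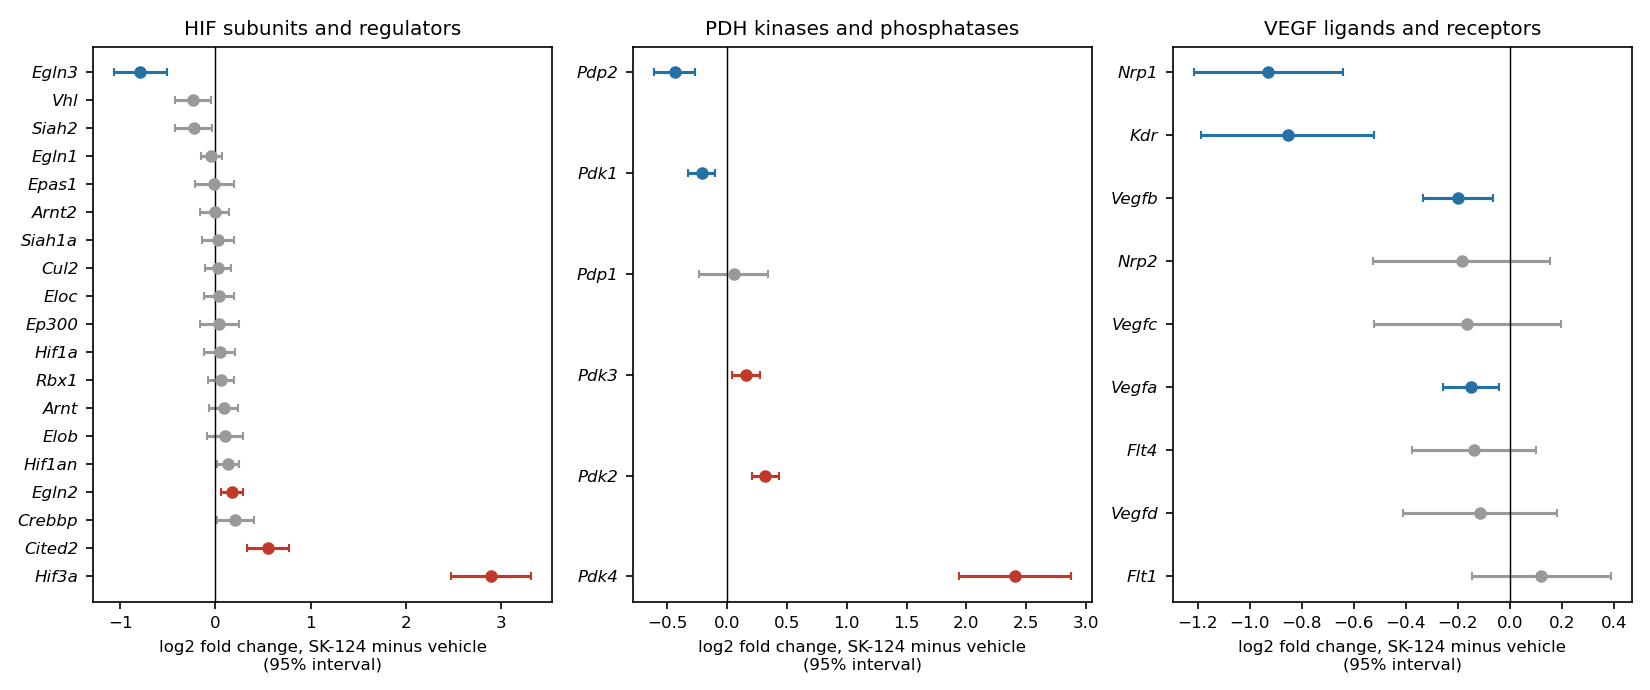
Log2 fold change of SK-124 minus vehicle with its 95% interval for HIF subunits and regulators, pyruvate dehydrogenase kinases and phosphatases, and VEGF ligands and receptors (red, higher and blue, lower at an FDR under 0.05; gray, not called). *Hif3a* at 2.90 and *Pdk4* at 2.41 stand far from the other genes of their panels.

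*Pdk1* (ENSMUSG00000006494.11; chromosome 2, 71873224 to 71903858, plus strand, no overlapping gene) encodes pyruvate dehydrogenase kinase 1, which under HIF-1 diverts pyruvate from the mitochondrion. It ranged from 18.4 to 21.2 CPM with a median of 19.6 in vehicle-treated mice and from 16.4 to 17.3 CPM with a median of 17.0 in SK-124–treated mice. All 6 SK-124–treated mice were below all 6 vehicle-treated mice (exact permutation p = 0.00216, the smallest that 6 against 6 allow), although the log2 fold change was only -0.21 (SE 0.05, FDR = 0.00754, edgeR). The value was -0.21 against SK-124–treated mice 1 to 3 (FDR = 0.0698) and -0.20 against mice 4 to 6 (FDR = 0.0748), and with limma on log2(TPM + 1) the FDR was 0.0732. The other kinases of the family moved the other way. *Pdk4*, the isoform known for its response to fasting and glucocorticoids, ranged from 11.7 to 26.1 CPM in vehicle-treated mice and from 53.5 to 138 CPM in SK-124–treated mice, a 5.30-fold difference (log2 fold change 2.41, SE 0.22, FDR = 4.15e-07). *Pdk2* rose by 0.32 (FDR = 0.00025) and *Pdk3* by 0.16 (FDR = 0.0485), while *Pdp2*, a phosphatase that reverses the kinases' action, fell by 0.44 (FDR = 0.000724). *Pdk2* was not called on the TPM scale. The call of *Pdk3* is marginal and was kept in 7 of 22 alternatives, 4 of them among the 12 fits without 1 mouse. Thus 5 of these 6 genes were called, 3 higher and 2 lower, 83.3% beside 24.4% of all genes.

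*Slc2a1* (ENSMUSG00000028645.11; chromosome 4, 119108711 to 119137983, plus strand) encodes the glucose transporter GLUT1. It ranged from 28.3 to 38.3 CPM with a median of 35.0 in vehicle-treated mice and from 27.0 to 30.9 CPM with a median of 28.7 in SK-124–treated mice. The groups overlapped, since the 2 lowest vehicle-treated mice lay among the SK-124–treated mice. *Slc2a1* had a log2 fold change of -0.23 (SE 0.07, FDR = 0.0247, edgeR), and the call was lost without vehicle-treated mouse 4 (FDR = 0.0604), vehicle-treated mouse 5 (FDR = 0.0623) or SK-124–treated mouse 5 (FDR = 0.055). Of 9 facilitative sugar transporters, 7 were tested and 2 fell, 28.6% of those tested beside 24.4% of all genes. These were *Slc2a1* and *Slc2a4*, the insulin-regulated GLUT4 (log2 fold change -0.32, SE 0.08, FDR = 0.00786). *Slc2a2*, encoding GLUT2, which carries glucose out of proximal tubule cells, had a value of -0.15 (FDR = 0.244).

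*Pfkfb3* (ENSMUSG00000026773.19; chromosome 2, 11471433 to 11554077, minus strand) encodes the enzyme that makes the glycolytic activator fructose-2,6-bisphosphate. Its values ranged from 7.51 to 12.9 CPM with a median of 10.3 in vehicle-treated mice and from 8.77 to 15.6 CPM with a median of 13.2 in SK-124–treated mice. A log2 fold change of 0.35 was found, with a 95% interval of 0.06 to 0.65 and did not pass the test (FDR = 0.0798, edgeR). The call depended on the mice: SK-124–treated mice 1 to 3 gave 0.17 (FDR = 0.583) and mice 4 to 6 gave 0.52 (FDR = 0.0289), and the gene was called without SK-124–treated mouse 2 (0.44, FDR = 0.0179) or vehicle-treated mouse 5 (0.43, FDR = 0.0364). *Pfkfb3* was at 0.24 with library totals (FDR = 0.293) and at 0.07 with limma on log2(TPM + 1) (FDR = 0.717). None of the 4 genes of its family was called. *Pfkfb2* had a log2 fold change of 0.11 (FDR = 0.501), *Pfkfb1* of 0.10 (FDR = 0.812) and *Pfkfb4* of -0.14 (FDR = 0.677). Of 15 genes of glycolysis and lactate export, 14 were tested, 1 rose and 2 fell, 21.4% of those tested beside 24.4% of all genes. *Hk1*, a hexokinase of the first step, fell by 0.40 (SE 0.06, FDR = 7.46e-05) with no overlap between the groups, *Pfkm* fell by 0.19 (FDR = 0.0234, called in 8 of the 12 fits without 1 mouse), and *Pfkp* rose by 0.37 (FDR = 0.00104), though not with library totals (0.26, FDR = 0.0605). The median of the 14 was 0.07.

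*Bnip3* (ENSMUSG00000078566.8; chromosome 7, 138890836 to 138909519, minus strand) encodes a mitochondrial receptor for mitophagy. It ranged from 64.8 to 73.7 CPM with a median of 68.7 in vehicle-treated mice and from 71.8 to 80.6 CPM with a median of 78.2 in SK-124–treated mice, and 5 of the 6 SK-124–treated mice were above the highest vehicle value. Its log2 fold change was 0.17 (SE 0.05, FDR = 0.019, edgeR), but 0.06 with library totals (FDR = 0.583) and 0.01 with limma on log2(TPM + 1) (FDR = 0.97), so the gene was not called without composition factors such as TMM. The annotated genes *Gm45507* and *Gm18258* overlap it on the opposite strand, and whether counting used strand is not given in the sources used here. Of 8 mitophagy and autophagy genes, all tested, 3 rose and none fell, 37.5% called beside 24.4% of all genes called and 10.8% called higher. *Gabarapl1*, which encodes a protein of the autophagosome membrane, rose by 0.63 (SE 0.05, FDR = 7.42e-08), from at most 377 CPM in vehicle-treated mice to at least 534 CPM in SK-124–treated mice. *Map1lc3b* rose by 0.23 (FDR = 0.00168), but was not called with library totals (0.12, FDR = 0.235) or with limma on log2(TPM + 1) (0.07, FDR = 0.663). *Bnip3l*, the paralogue encoding NIX, had a value of 0.05 (95% interval -0.07 to 0.16, FDR = 0.593).

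**Figure D4:**
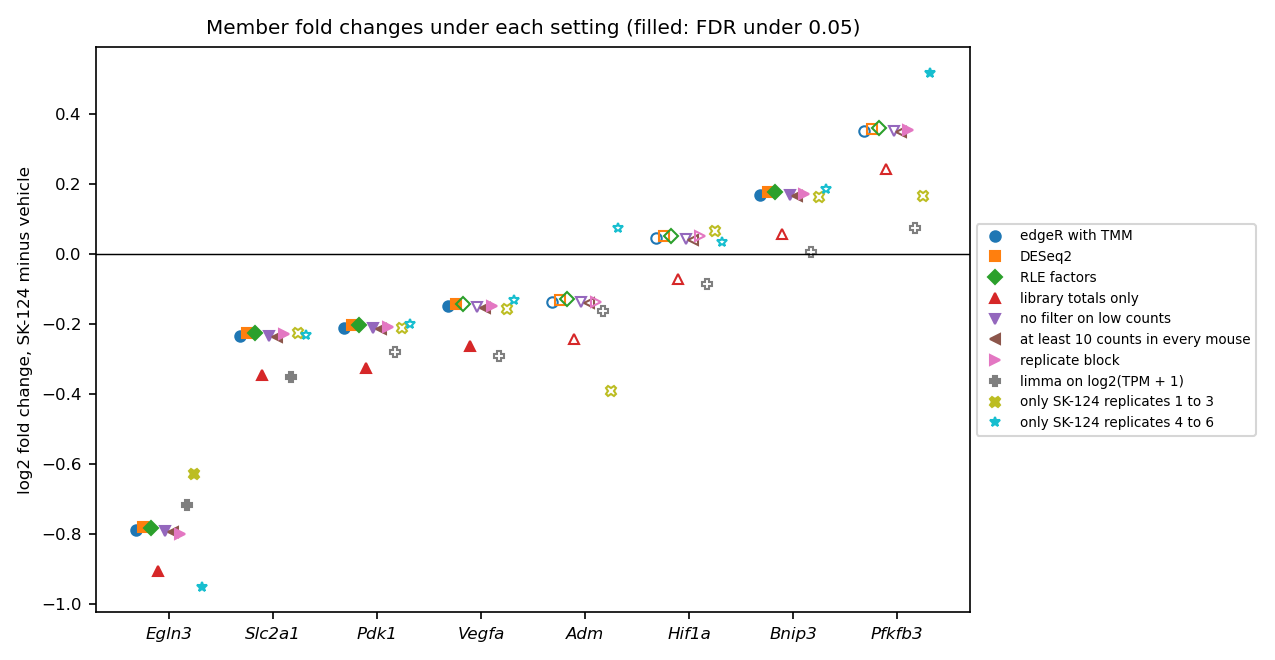
Log2 fold change of the 8 tested members under each setting of the analysis (filled symbols, FDR under 0.05). *Egln3* is filled throughout, and the symbols of *Bnip3* fall to 0.06 and 0.01 with library totals and TPM.

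*Vegfa* (ENSMUSG00000023951.18) encodes the growth factor of endothelial cells. The version of its identifier differs from that in GENCODE M21, so no gene coordinates are given. It was the most abundant member per length, at 99.9 ± 11.2 TPM (SD, n = 6) in vehicle-treated mice and 81.8 ± 12.8 TPM (SD, n = 6) in SK-124–treated mice. In CPM it ranged from 135 to 155 with a median of 140.2 in vehicle-treated mice and from 121 to 135 with a median of 130.4 in SK-124–treated mice, and 5 of the 6 SK-124–treated mice were below the lowest vehicle value. This gave a log2 fold change of -0.15 (SE 0.05, FDR = 0.0406, edgeR). This is a marginal call: it was lost in 9 of the 12 fits that left out 1 mouse (FDR from 0.019 to 0.102 over the 12) and with RLE factors (FDR = 0.0517). Of the 10 ligands and receptors of the family, 9 were tested, none rose and 4 fell. That is 44.4% of those tested, beside 24.4% of all genes called and 13.5% called lower. *Kdr*, encoding the main signaling receptor VEGFR2, ranged from 21.5 to 36.4 CPM in vehicle-treated mice and from 10.7 to 19.9 CPM in SK-124–treated mice (log2 fold change -0.85, SE 0.16, FDR = 0.000647). *Nrp1*, encoding the co-receptor neuropilin-1, ranged from 15.2 to 27.2 CPM and from 8.85 to 13.3 CPM (log2 fold change -0.93, SE 0.14, FDR = 6.92e-05). The groups did not overlap for either gene. *Vegfb* fell by 0.20 (FDR = 0.029, called in 7 of the 12 fits without 1 mouse), and *Flt1*, encoding VEGFR1, had a value of 0.12 (FDR = 0.54). Of 8 endothelial markers, *Kdr* among them, 3 fell (*Kdr*, *Tek* and *Eng*) and none rose, 37.5% called beside 24.4% of all genes. The defining markers *Pecam1* (0.07) and *Cdh5* (0.29) did not pass the test. The call of *Eng* is marginal (FDR = 0.0496) and was kept in 10 of 22 alternatives. Their summed level ranged from 258 to 361 CPM in vehicle-treated mice and from 209 to 338 CPM in SK-124–treated mice, and no marker was at 0 in any mouse. Their part in the fall of *Kdr* and *Nrp1* was not tested, and in whole kidney fewer cells of a type and less RNA per cell cannot be told apart. Summed podocyte markers ranged from 216 to 337 CPM in vehicle-treated mice and from 231 to 281 CPM in SK-124–treated mice.

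*Adm* (ENSMUSG00000030790.15; chromosome 7, 110627661 to 110629820, plus strand), encoding the vasodilator adrenomedullin, overlaps the antisense gene *Gm28863*. It ranged from 1.94 to 3.65 CPM with a median of 2.93 in vehicle-treated mice and from 1.81 to 3.61 CPM with a median of 2.40 in SK-124–treated mice, so the groups covered the same range. Its log2 fold change was -0.14 with a 95% interval of -0.51 to 0.24 (FDR = 0.632, edgeR), and its sign turned in SK-124–treated mice 4 to 6 (0.07). Genes around it did change. *Adm2*, encoding the related peptide intermedin, ranged from 1.78 to 2.62 CPM in vehicle-treated mice and from 0.659 to 1.73 CPM in SK-124–treated mice (log2 fold change -1.21, SE 0.22, FDR = 0.000519), and *Ramp3*, encoding a subunit of the adrenomedullin receptor, from 6.31 to 8.12 CPM and from 11.04 to 14.0 CPM (0.85, SE 0.08, FDR = 7.53e-07). Of the 6 genes of this axis 5 were tested, 1 rose and 1 fell, beside 24.4% of all genes called (10.8% higher and 13.5% lower).

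*Epo* (ENSMUSG00000029711.13; chromosome 5, 137483020 to 137533242, minus strand) was close to absent. Its expected counts were 0, 0, 0, 1, 0 and 0 in vehicle-treated mice 1 to 6 and 3, 1, 0, 0, 0 and 1 in SK-124–treated mice 1 to 6. A count of 0 allows up to 3 counts, which is 0.142 to 0.175 CPM in these libraries (counting error only). This limit holds for mice with a count of 0. Only 1 vehicle-treated and 3 SK-124–treated mice had any count, and none had more than 3, so no fold is given. The *Epo* gene span overlaps 7 annotated genes, among them *Gnb2* and *Gigyf1*. The interstitial fibroblast markers that go with the cells making *Epo* summed to 121 to 186 CPM in vehicle-treated mice and 83.4 to 145 CPM in SK-124–treated mice. Of these 6 markers 2 fell, *Pdgfrb* and *Col1a2*, 33.3% beside 24.4% of all genes. None was at 0 in any mouse, so the markers were measured where *Epo* had at most 3 counts per mouse. Of 5 genes tied to *Epo* as its receptor or transcription factors, all tested, 1 fell, beside 24.4% of all genes called and 13.5% called lower. This was *Gata2*, a repressor of *Epo* (log2 fold change -0.61, SE 0.08, FDR = 1.45e-05). Of 5 red cell markers none was called.

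*Ankrd37* (ENSMUSG00000050914.16; chromosome 8, 45996902 to 46005707, minus strand), an ankyrin repeat gene, had 4 to 9 counts in vehicle-treated mice and 2 to 7 in SK-124–treated mice, 38 and 24 in all. The ranges overlapped. Without a filter on low counts its log2 fold change was -0.53 (SE 0.38, FDR = 0.442), so a difference was not detectable at this depth.

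Per length, in TPM, which takes account of transcript length, the order of the members in vehicle-treated mice was *Vegfa*, *Bnip3* (44.4), *Slc2a1* (11.4), *Hif1a* (10.95), *Pdk1* (4.997), *Egln3* (4.33), *Pfkfb3* (2.31), *Adm* (2.19), *Ankrd37* (0.53) and *Epo* (0.015), as means over 6 mice. *Slc2a1* and *Hif1a* overlapped between mice, as did *Pdk1* and *Egln3*, and *Pfkfb3* and *Adm*. The other neighbors did not. In SK-124–treated mice *Egln3* stood below *Pfkfb3*, at 2.25 against 2.51 TPM, and *Slc2a1* below *Hif1a*, at 8.71 against 10.2 TPM, both with overlapping ranges. RSEM's mean transcript length per gene, a readout of which transcripts are used, was tested by limma over 12054 genes, of which 0.0415% (5 genes) were called and 696 had an unadjusted p under 0.05. Of the members 7 entered this test and none was called (smallest FDR 0.943). *Egln3* has 1 transcript in the files, and its length is constant.

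Among the HIF targets examined, the largest changes were outside the 10 members. Of 33 other HIF targets, 32 were tested, 11 rose and 5 fell, with a median of 0.07. The share called was larger than the 24.4% of all genes (10.8% higher and 13.5% lower). *Ddit4*, an inhibitor of mTORC1 that is also a glucocorticoid and stress target, ranged from 4.21 to 5.64 CPM in vehicle-treated mice and from 70.0 to 108 CPM in SK-124–treated mice (log2 fold change 4.15, SE 0.12, FDR = 4.64e-13). *Angptl4*, an inhibitor of lipoprotein lipase, ranged from 28.0 to 39.9 CPM and from 157 to 202 CPM (2.47, SE 0.09, FDR = 6.25e-12), and *Hmox1*, heme oxygenase 1, from 18.5 to 23.1 CPM and from 133 to 519 CPM (3.39, SE 0.30, FDR = 2.54e-07). In the 15 genes of a core hypoxia signature that share several members with the present set, 14 were tested, 2 rose and 2 fell, 28.6% of those tested and near the 24.4% of all genes. *Ndrg1* rose by 0.50 (SE 0.09, FDR = 0.00032) with no overlap, and *Tubb6* by 0.45 (FDR = 0.0174), though not with library totals (0.35, FDR = 0.11), on the TPM scale or with SK-124–treated mice 1 to 3 alone (0.21, FDR = 0.357), while *Slc2a1* and *Vegfa* were the 2 that fell.

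**Figure D5:**
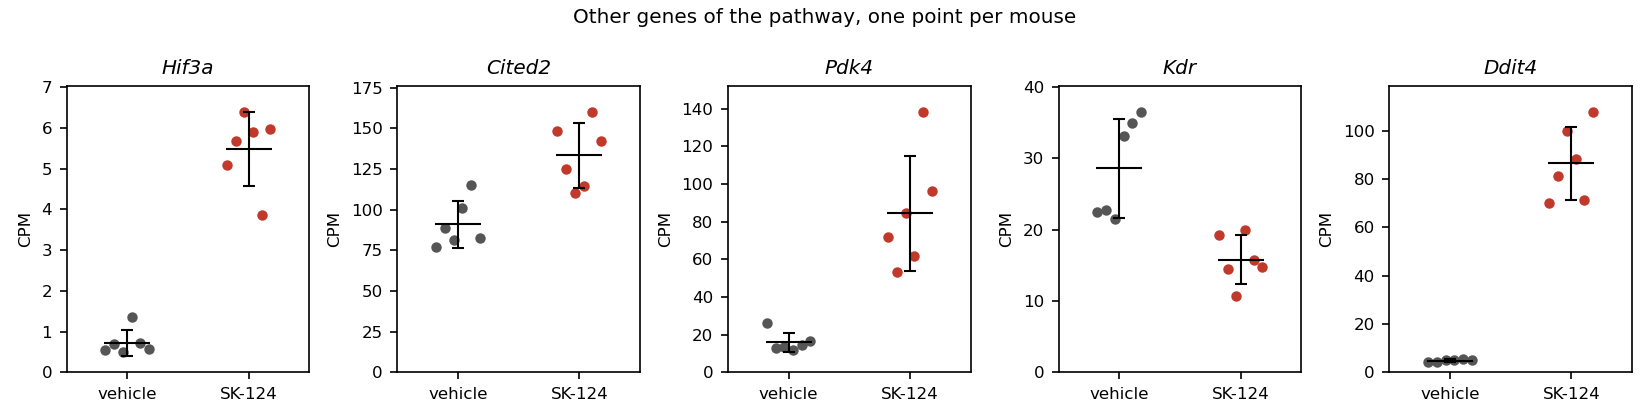
TMM-normalized CPM of 5 genes around the members in every mouse (gray, vehicle; red, SK-124; bars, mean ± SD, n = 6). The groups do not overlap for *Hif3a*, *Pdk4*, *Kdr* and *Ddit4*, and those of *Cited2* meet at 110.1 to 115 CPM.

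The genes whose levels varied most like each member across the 12 mice, after the group means were removed, had Pearson r between 0.844 and 0.975 over the 13008 genes averaging 1 CPM or more. They were *Gm14964*, *Gadd45b* and *Rn7sk* for *Egln3*, *Wdr35*, *Prps1l3* and *Dsc2* for *Pdk1*, *Large2*, *Nccrp1* and *Elfn1* for *Slc2a1*, *Armcx1*, *Mal* and *Uxs1* for *Vegfa*, *Minos1*, *Zcrb1* and *Zfp949* for *Bnip3*, *Usp36*, *Pde2a* and *Fam222a* for *Pfkfb3*, *Cast*, *Ppp2r5e* and *Fam49b* for *Hif1a*, and *Zfp512b*, *Rnf130* and *Hsdl2* for *Adm*. No member was among the 3 nearest genes of another. Among the 28 pairs of members the median r was 0.12, and the highest, *Vegfa* with *Pfkfb3*, was 0.60 (Spearman's rho 0.69). Values picked as the highest among 13008 genes run high by that choice, and the members are few among those genes. All points share their libraries, and these values are descriptions over 12 mice.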

How the data were processed

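Whole-kidney RNA of 12 mice was sequenced as 1 library per mouse. The authors deposited RSEM gene tables holding expected counts (RSEM's unnormalized estimate of the reads of each gene) and TPM, scaled by RSEM to effective length and library total. Other deposited columns hold mean and effective transcript length. The submitters' processing notes name STAR 2.7.2b, RSEM 1.3.0 and mm10; strand is not given in the sources used here. GENCODE M21 (GRCm38) held 54349 of the 55401 identifiers in the same version.

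Expected counts were rounded (3.82% were not whole), filtered with filterByExpr, scaled with TMM and compared in edgeR by quasi-likelihood. SE was obtained from the fold change and its F statistic. Single genes were also compared by two-sided exact permutation over 924 assignments on log2(CPM + 0.5). Transcript lengths were tested with limma on the log2 scale. The tools were edgeR 4.0.16, DESeq2 1.42.0 and limma 3.58.1 under R 4.3.3. The methods were tested on simulated data. No pair of mice looked like a repeated deposit of 1 library (smallest chi-square per degree of freedom 4.73 over 30 pairs). Depths were alike, and low-count genes are the ones that depth limits.

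Members and lists were chosen with earlier results of these data known. Named genes are the members, up to 4 called genes per list averaging 1 CPM or more, by largest absolute log2 fold change, the members' families and the 3 genes most like each member; genes named beyond this (*Epas1*, *Flt1*, *Pecam1*, *Cdh5*, *Slc34a1*) were chosen after their values were seen. 2 genes that this rule names are not reported here. Lists covered HIF regulators, glycolysis, other HIF targets, a core hypoxia signature, the families and axes of the members, mitophagy and 8 cell types. Alternatives were DESeq2, RLE factors, library totals, 2 other filters, a replicate block, limma on TPM with pseudocounts of 1 and 0.1, leaving out each mouse, and SK-124–treated mice 1 to 3 or 4 to 6. The labels do not say that mice were separately caged or processed, so p-values measure only the spread between these mice.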

Additional observations from a re-analysis of the deposited data

Results flagged for a closer look

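In 12 of the 98 groups of 6 mice examined (each gene of the report outside *Epo* and the similar genes, in each treatment group), 1 mouse stood apart from the other 5 by Dixon's test, where chance alone gives about 4.9. Among the members this was SK-124–treated mouse 2 for *Bnip3*, at 71.8 CPM, where the nearest mouse had 77.6 CPM. In vehicle-treated mice it was *Hif3a* in mouse 4 (1.36 CPM, nearest 0.712), *Pdk4* in mouse 1 (26.1 CPM, nearest 16.4), *Egln1* in mouse 3 (39.4 CPM, nearest 42.5), *Ramp3* in mouse 3 (8.12 CPM, nearest 6.92), *Slc2a5* in mouse 5 (59.0 CPM, nearest 51.1) and *Aqp2* in mouse 5 (143.0 CPM, nearest 104.0). In SK-124–treated mice it was *Hmox1* in mouse 5 (519.0 CPM, nearest 183.0), *Adm2* in mouse 4 (1.73 CPM, nearest 0.877), *Col1a2* in mouse 6 (44.8 CPM, nearest 30.6), *Eng* in mouse 3 (57.4 CPM, nearest 77.6) and *Pdgfrb* in mouse 3 (8.12 CPM, nearest 13.0).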

How the results depend on the processing

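*Egln3* kept its direction and its call in all 22 alternatives, with log2 fold changes from -0.95 to -0.63. Library totals called 777 genes higher and 3058 lower and no member higher, with *Bnip3* at 0.0577. Limma called 500 genes higher on log2(TPM + 1) and 498 on log2(TPM + 0.1), and 2 members on either scale, both lower and 0 higher; *Vegfa* was at -0.29 on both (FDR 0.0621 and 0.061), *Bnip3* at 0.00657 and 0.00644 (FDR 0.97 and 0.972) and *Pdk1* at -0.28 and -0.34. *Vegfa* also lost its call with RLE factors (-0.14) and without a filter (-0.15). The exact test of *Bnip3* gave p = 0.959 on log2(TPM + 1). The cause of these changes was not tested beyond the change of scale.

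With 3 SK-124–treated mice in place of 6, fewer calls were made. Mice 1 to 3 gave 2298 called genes, 1233 of them lower, and 1 member called, 1 lower and 0 higher, with *Vegfa* at -0.16, *Slc2a1* at -0.23, *Bnip3* at 0.16 and *Pdk1* at -0.21. Mice 4 to 6 gave 1267 lower genes and 2 members called, 1 of them lower, with *Vegfa* at -0.13, *Slc2a1* at -0.23, *Pfkfb3* at 0.52, *Bnip3* at 0.19 and *Pdk1* at -0.20.

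With 1 mouse left out at a time, between 2960 and 3942 genes were called, and between 3 and 5 members, 1 to 2 of them higher and 2 to 4 lower; 3 members were called without vehicle-treated mouse 4, and only 2 were called lower without vehicle-treated mouse 5. Log2 fold changes lay between -0.16 and -0.12 for *Vegfa*, -0.28 and -0.19 for *Slc2a1*, 0.28 and 0.44 for *Pfkfb3*, 0.15 and 0.19 for *Bnip3* and -0.23 and -0.19 for *Pdk1*. The count of genes called for transcript length lay between 3 and 11.

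Same-numbered mice did not deviate together (r from -0.13 to 0.22), so the numbers do not pair the mice. The replicate block called 3466 genes, put *Pfkfb3* at 0.35 with an FDR of 0.0076, so that 2 members were called higher, and called 1 gene for transcript length. For the 40 other genes named, 798 of 878 values under the alternatives kept direction and side of the threshold, 72 lost a call, 8 gained one and 0 turned direction with a call. Depth limits *Epo* and *Ankrd37*.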
